A study of Mus musculus with 8 samples.

Results

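The genes of cardiolipin synthesis were followed in single myocardial cells of the mouse heart tube, with Ptpmt1 at the centre. The 7 genes were Ptpmt1, Pgs1, Crls1, Cds1, Cds2, Taz and Lclat1, and all 9 array probes that carried these names were read, out of 55681 probes naming 24075 genes. Ptpmt1 was chosen by its measured rise in the knockout cells and the other genes for their place in the same pathway, with results of these cells known, so the difference between genotypes given for these genes is a description and was not tested.

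Each array held the amplified and Cy3-labelled product of 1 cell taken from the heart tube at embryonic day 8.5, when the embryos had 9 somites. Males carrying Mesp1Cre/+ were crossed with Sox17flox/flox females, and embryos were genotyped from the tail. The 4 WT cells were Mesp1+/+ and Sox17flox/flox, so they carried the floxed Sox17 alleles and no Cre. The 4 KO cells were Mesp1Cre/+ and Sox17flox/flox, so Cre was driven from the Mesp1 locus in the early mesoderm and 1 Mesp1 allele was replaced by it. Since no embryo or litter was named for a cell, the 4 cells of a genotype count as 1 sample. The SD given is therefore the spread between cells, and neither p-values nor standard errors were computed. All WT arrays were on 1 slide and all KO arrays on the other, each slide with its own scan. The slide, the scan and the genotype cannot be told apart.

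The share of probes well above background (the scanner software's flag, called detected here) was 19.6% to 26.0% in the WT cells and 17.2% to 24.3% in the KO cells. Every cell had all 10 myocardial markers detected and none of the 7 erythroid ones. Of 10 endothelial markers, 3 to 4 were detected in each WT cell and 2 to 3 in each KO cell. Their summed scaled signals were 975 to 1143 and 898 to 1116. Kdr and Plvap were detected in all 4 WT and all 4 KO cells, and Pecam1 in 4 WT and 2 KO cells. Tie1 and Etv2 were each detected in 1 WT cell, and Cdh5, Tek, Emcn, Nfatc1 and Tal1 in no cell. Kdr had a median signal of 557.4 in WT and 552.6 in KO cells. The other endothelial markers had medians at or near the floor defined below, and weaker signals entered the sums at that floor. At most 1 of 5 endoderm and 1 of 4 proepicardial markers were detected in any cell. Of 3 neural crest markers, 1 to 2 were detected in each cell of both genotypes, at summed signals of 1151 to 3304 in WT and 158 to 6688 in KO. The part of these levels in the results was not tested. Sox17 itself was detected in 0 of 4 WT and 0 of 4 KO cells with both of its probes, so its level offers no check of the genotype labels.

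Cardiolipin is the signature phospholipid of the inner mitochondrial membrane, where it holds respiratory chain complexes together, and the heart is among the tissues richest in it. Its backbone is built in a short series of steps. CDP-diacylglycerol is formed from phosphatidic acid, Pgs1 joins it to glycerol 3-phosphate to give phosphatidylglycerophosphate, Ptpmt1 removes the phosphate to leave phosphatidylglycerol, and Crls1 joins phosphatidylglycerol to another CDP-diacylglycerol. The acyl chains of the new lipid are then exchanged, by the transacylase tafazzin (Taz) among others, until the form found in mature heart is reached.

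Every value for these genes comes from 1 or 2 probes of 60 bases, so the probes are shown first, because what each reports is the stretch it matches. A part of 30 bases of each probe is given 5′ to 3′ as the array file spells it, with any AATAAA polyadenylation signal in capitals.
Ptpmt1: tgactggtagataatgtgtctcctttgcct
Pgs1: gcattggaatcacAATAAAcatggagaatg
Crls1: ggatgtttgatactggaaccagtgctcata
Cds1: gcgagttctttaacaacaacactctagtaa
Cds2, the probe of higher signal: cttcaacacgctcaagtctcacctaactga
Cds2, the other probe: gaggagacttgagtagctgaggacttcgtg
Taz, the probe of higher signal: tgtttttagagtAATAAAacatttgtgttg
Taz, the other probe: catgttcaaacaccctgtttccaaattaag
Lclat1: gggatcctgtcggtgttaaactgtttacat

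The positions of the whole probes in the mouse build mm9, per the array files, were chr2:90751153-90751212 on the minus strand for Ptpmt1 and chr11:117885264-117885323 on the plus strand for Pgs1. The Crls1 probe lay at chr2:132692364-132692423, the Cds1 probe at chr5:102252307-102252366 and the Lclat1 probe at chr17:73592189-73592248, all on the plus strand. Those for Cds2 lay at chr2:132130955-132131014 and chr2:132121503-132121562, and those for Taz at chrX:71535428-71535487 and chrX:71540472-71540531. No annotation of that build was used here, so exon and UTR boundaries are not given. The Ptpmt1 probe held a stop codon in each of its 3 forward frames, as did those for Cds1 and the lower Cds2 probe. Searched on the printed strand only, AATAAA was found in the Pgs1 probe and the brighter Taz probe, and in 13.5% of the 32187 probes of this length that carry a gene name. The GC content of the probes was 35.0% to 53.3% around a median of 41.7% over those probes.

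Signals below are scaled between arrays and are given in arbitrary units of fluorescence. For means and differences, values under 50 were set to 50 (5.64 on the log2 scale), and a difference is the mean log2 signal of KO cells minus that of WT cells.

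Ptpmt1 was detected in all 8 cells, and it was the only one of the 7 genes of which that was true. In WT cells 1 to 4 its scaled signal was 95.8, 74.4, 2313.9 and 75.3. In KO cells 1 to 4 it was 1531.6, 10617.8, 5030.2 and 6310.1. All 4 KO cells were thus far above WT cells 1, 2 and 4, but WT cell 3 lay above KO cell 1, so the groups overlapped by this pair. The order from high to low was KO 2, KO 4, KO 3, WT 3, KO 1, WT 1, WT 4 and WT 2, and the last 3, all WT, were close together. The same overlap stood before scaling, at 3762.9 for WT cell 3 and 2587.7 for KO cell 1.

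The mean log2 signal of Ptpmt1 was 7.55 ± 2.42 (SD, n = 4 cells) in WT and 12.22 ± 1.18 (SD, n = 4 cells) in KO. The difference of 4.67 on the log2 scale corresponds to 25.4-fold. These are the values Ptpmt1 was chosen on. Without WT cell 3 the difference was 5.87, and with the median of each genotype in place of its mean it was 6.05. With a normexp background correction it was 4.03.

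**Figure D1:**
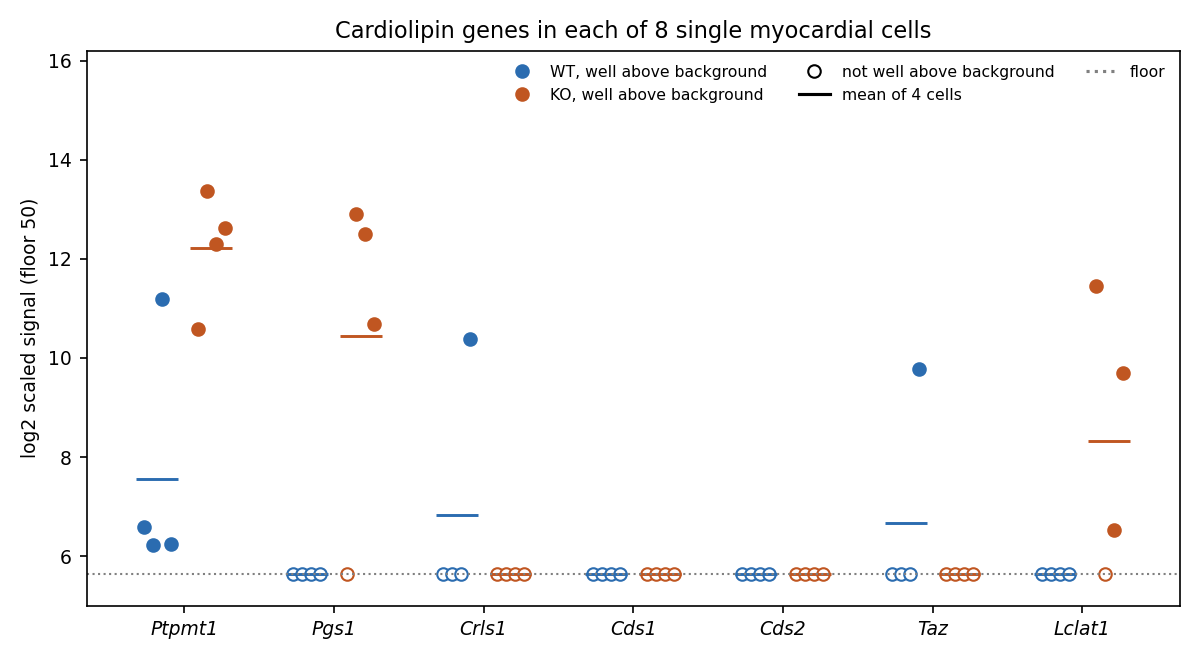
Log2 scaled signal (vertical axis, floor of 50 as the dotted line) of the brightest probe of each gene in 4 WT cells (blue) and 4 KO cells (orange), filled where well above background and open where not, with the mean of each genotype as a bar. Ptpmt1 was detected in all cells with WT 3 among the KO values, Pgs1 and Lclat1 were detected in 3 KO cells each, Crls1 and Taz in WT 4 only, and Cds1 and Cds2 in no cell.

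Set against all probes that were detected in every cell of at least 1 genotype (7463 probes, called present), Ptpmt1 had a wide WT spread. The median SD between WT cells was 0.74 on the log2 scale, and 9.62% of present probes had a larger one than Ptpmt1. Its spread between KO cells was less unusual, since 32.3% of present probes had a larger one. Only 14 present probes had a larger KO minus WT difference, and the median difference of all present probes was 0.02. Because Ptpmt1 was chosen for this difference, nothing is read from its rank. Of present probes, 1.74% were at least 5-fold higher in KO cells, the size rule the study used, and 6.89% were at least 5-fold lower. Of the 7 genes, only Ptpmt1 was present, and it was at least 5-fold higher. None was at least 5-fold lower. All 4 KO cells lay above all 4 WT cells for 243 present probes (3.26%), and Ptpmt1 was not among them.

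**Figure D2:**
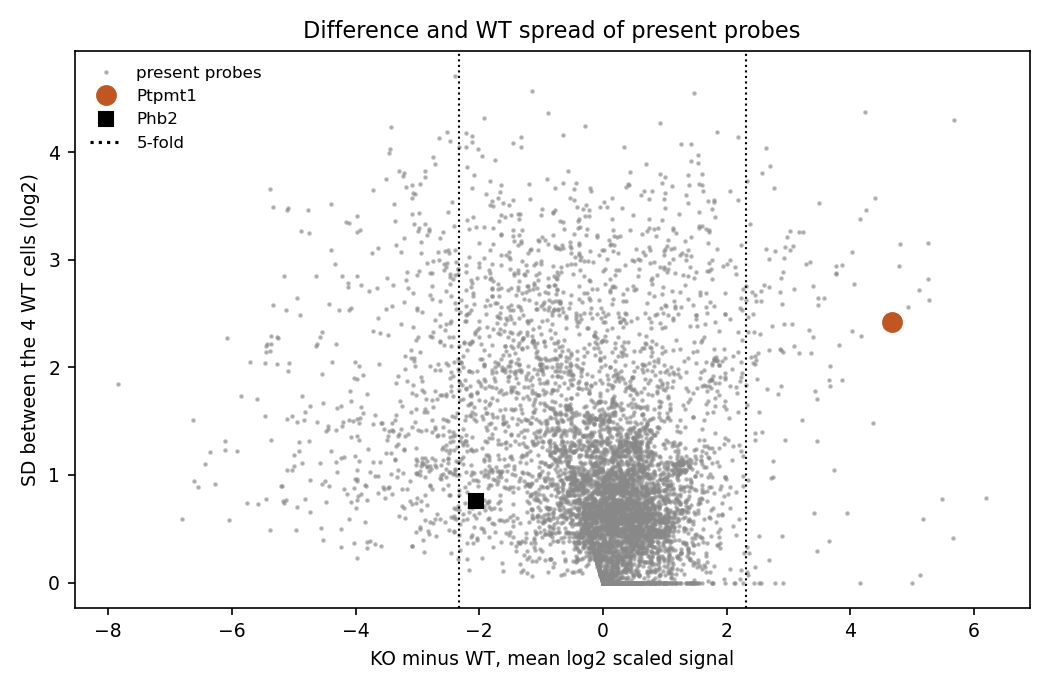
Each grey point is 1 of 7463 present probes, placed by its KO minus WT difference in mean log2 signal (horizontal) and its SD between the 4 WT cells on the log2 scale (vertical), with dotted lines at 5-fold. Ptpmt1 (large circle) stands at 4.67 and 2.42, among the probes of large difference and large WT spread, and the brightest Phb2 probe (square) at -2.05 and 0.76.

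Of the enzymes around Ptpmt1, the one just before it was also brighter in KO cells. Pgs1, the phosphatidylglycerophosphate synthase that makes the substrate of Ptpmt1, was detected in 0 of 4 WT and 3 of 4 KO cells. Its scaled signal was 7.4, 1.9, 2.2 and 1.5 in WT cells 1 to 4. KO cells 1 to 4 read 1.2, 7655.1, 5822.2 and 1648.7. KO cell 1, the lowest of the KO cells for Ptpmt1, was the one in which Pgs1 was not detected, and WT cell 3, the highest of the WT cells for Ptpmt1, had no detectable Pgs1. Undetected cells of both genotypes were set to the floor, which lies above the weakest signals called detected. On that footing the mean over the 4 KO cells (10.44 ± 3.34, SD, log2) was 27.7-fold higher than in WT.

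Crls1, the cardiolipin synthase that takes the product of Ptpmt1, was detected in a single cell, and it was a WT cell. Its scaled signal in WT cell 4 was 1336.4, and it did not exceed 2.2 in the other WT cells. The KO cells read 1.2 to 3.0. The Crls1 probe was thus below detection in all 4 KO cells and in WT cell 3, where Ptpmt1 was high. WT cells 1 and 2 were below detection as well. With undetected cells at the floor, the WT mean was 2.27-fold higher, a value that rests on WT cell 4 alone.

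Cds1 and Cds2, the CDP-diacylglycerol synthases of the endoplasmic reticulum, were detected in 0 of 8 cells. Their 3 probes read 1.2 to 3.4 in every cell. No fold change can be given, and a transcript too rare for the amplification of 1 cell cannot be told apart from an absent one. The same holds for each of the undetected values above.

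The remodelling genes were Lclat1 and Taz. Lclat1, a lysocardiolipin acyltransferase, was detected in 0 of 4 WT cells, where it read 2.5, 2.1, 1.3 and 6.5. In KO cells 1 to 4 it read 2794.0, 3.2, 91.9 and 826.7, and it was detected in 3 of the 4, with KO cell 2 as the exception. That cell had the highest Ptpmt1 and the highest Pgs1. With undetected cells at the floor, the mean over the KO cells (8.33 ± 2.71, SD, log2) was 6.42-fold higher than in WT. This difference of 2.68 on the log2 scale was 1.64 without KO cell 1 and 3.58 without KO cell 2.

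Taz, which encodes tafazzin, was detected with its brighter probe in WT cell 4 only, at 870.2, and in 0 of 4 KO cells. With undetected cells at the floor, the WT mean was 2.04-fold higher on that probe. The other Taz probe was detected in WT cells 2 and 3 and KO cells 1 and 2. Its signals of 5.7 to 22.0 over the 8 cells were all under the floor. The probes therefore gave different answers on which cells held Taz, and the second gave no value above the floor.

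Detection of 0 WT and at least 3 KO cells, as for Pgs1 and Lclat1, was met by 0.36% of the 24433 probes detected in any cell, and the opposite, 0 KO and at least 3 WT cells, by 1.58%, with none of the 7 genes among them. Because the genes were listed with these values known, nothing is read from the count.

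Cell by cell, no cell had the whole pathway. With the brightest probe of each gene, WT cells 1, 2 and 3 had only Ptpmt1 detected. WT cell 4 had Ptpmt1, Crls1 and Taz. KO cell 1 had Ptpmt1 and Lclat1, KO cell 2 had Ptpmt1 and Pgs1, and KO cells 3 and 4 had all of Ptpmt1, Pgs1 and Lclat1. The weaker Taz probe would add Taz to WT cells 2 and 3 and to KO cells 1 and 2. Pgs1 and Crls1 were never detected in the same cell. Summed over cells, 6 of 28 values were detected in WT and 10 of 28 in KO with the brightest probes, and 8 and 12 with any probe of a gene. Nothing is read from these sums either.

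Beyond these genes, 38 others that supply, remodel, bind or compete for the same lipids were examined as a list, and their median difference lay near 0. Of the 38, 32 were detected in at least 1 cell, 15 in at least 4 cells and 6 in all 8. The median KO minus WT difference of the 15 was 0.14 on the log2 scale, with 8 above 0 and 7 below. Its sign turned under several alternatives, down to -0.66 without KO cell 2 and up to 0.53 without WT cell 2. The median over the 5359 genes that met the same rule was 0.00. Among the 11 present list genes, each taken by its brightest probe, 0 were at least 5-fold higher and 1 was at least 5-fold lower in KO cells, while over all 3363 present genes the numbers were 91 and 361. The cells had 14, 20, 20 and 17 list genes detected in WT and 18, 15, 12 and 14 in KO, so the groups overlapped.

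The genes that supply phosphatidic acid and bring it to the inner membrane had a median difference of -0.24 over the 4 that met the rule. Prelid1, which carries phosphatidic acid between the mitochondrial membranes, was detected in every cell. It read 8630.6, 4785.1, 2195.4 and 1542.8 in the WT cells and 5485.9, 14002.4, 11412.1 and 6796.5 in the KO cells. The KO cells tended to be higher, by 1.35 on the log2 scale, but WT cell 1 lay above KO cells 1 and 4, so the groups overlapped. Its other probes gave 1.49 and 1.64. Prelid3b, of the same family, differed by 0.27. Agpat1, which makes phosphatidic acid, differed by -0.84, and KO cells 3 and 4 had none above background. Tamm41, the CDP-diacylglycerol synthase of the mitochondrion itself, was found in WT cells 2 and 4 and in KO cell 2. Of Cds1, Cds2 and Tamm41, none was thus detected in more than 1 KO cell.

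Among genes of remodelling and turnover, only 2 met the rule, with a median of 1.41. Hadhb, the beta subunit of the mitochondrial trifunctional protein, whose alpha subunit Hadha also has an acyltransferase form acting on cardiolipin, was missing from WT cell 1 and KO cell 1. It read 2.5, 42.1, 457.4 and 200.0 in WT and 1.4, 5194.7, 268.9 and 2359.7 in KO. The difference was 2.37, but the highest WT cell lay above KO cells 1 and 3, and Hadhb was not present by the rule, as neither genotype had it in all cells. Hadha was above background in WT cells 2 and 3 and KO cell 4. Nme4, a kinase that binds and moves cardiolipin, was detected in 2 WT and 3 KO cells, with a difference of 0.44.

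Genes whose products form scaffolds around cardiolipin had a median difference of 0.03 over the 4 that met the rule. Phb2, a prohibitin that forms ring scaffolds in the inner membrane, was the exception. Its scaled signal was 3366.0, 1248.0, 3839.3 and 3442.4 in the WT cells and 335.3, 519.0, 880.5 and 1233.2 in the KO cells. All KO cells were below all WT cells, by a narrow margin between WT cell 2 and KO cell 4, and the means differed by -2.05 on the log2 scale (11.41 ± 0.76 and 9.36 ± 0.83, SD). All 4 KO cells lay below all 4 WT cells for 2.26% of present probes. With quantile normalization the groups overlapped, as the lowest WT cell read 1130.6 and the highest KO cell 1246.6, and the difference was -1.74. The other Phb2 probe, also present, differed by -3.01 and so was at least 5-fold lower in KO cells. Stoml2, which recruits prohibitins to cardiolipin, differed by 0.14 with SDs of 2.14 in WT and 3.15 in KO cells. Dnajc19, a prohibitin partner in cardiolipin remodelling, read 590.1, 253.5, 340.5 and 450.3 in WT and 448.7, 2005.0, 520.9 and 815.6 in KO. That was a difference of 1.01, with KO cells 1 and 3 inside the WT range. Its other probes gave 0.44 and -0.06, the last of them detected in 1 WT and 1 KO cell.

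Genes that use CDP-diacylglycerol or make the other mitochondrial phospholipids had a median of -1.21 over 5 genes. Pisd, which makes phosphatidylethanolamine in the inner membrane, was the 1 list gene at least 5-fold lower on its brightest probe. It read 22.6, 1335.5, 158.3 and 1959.5 in WT, while all 4 KO cells were under the floor, a difference of -2.92. WT cell 1 was under the floor as well, so that 3 WT cells carried the difference. Cdipt, which draws CDP-diacylglycerol into phosphatidylinositol, read 24.8, 826.6, 5460.3 and 1220.3 in WT and 14651.1, 14.3, 10.2 and 18.5 in KO. The highest cell was thus a KO cell and the other KO cells were the lowest, and the difference was -1.81. Ptdss1, a phosphatidylserine synthase, was detected in WT cells 2 and 3 and KO cells 1 and 4, and Pcyt2, an enzyme of phosphatidylethanolamine synthesis, was above the floor only in WT cell 3 (4979.4) and KO cell 2 (18817.0).

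**Figure D3:**
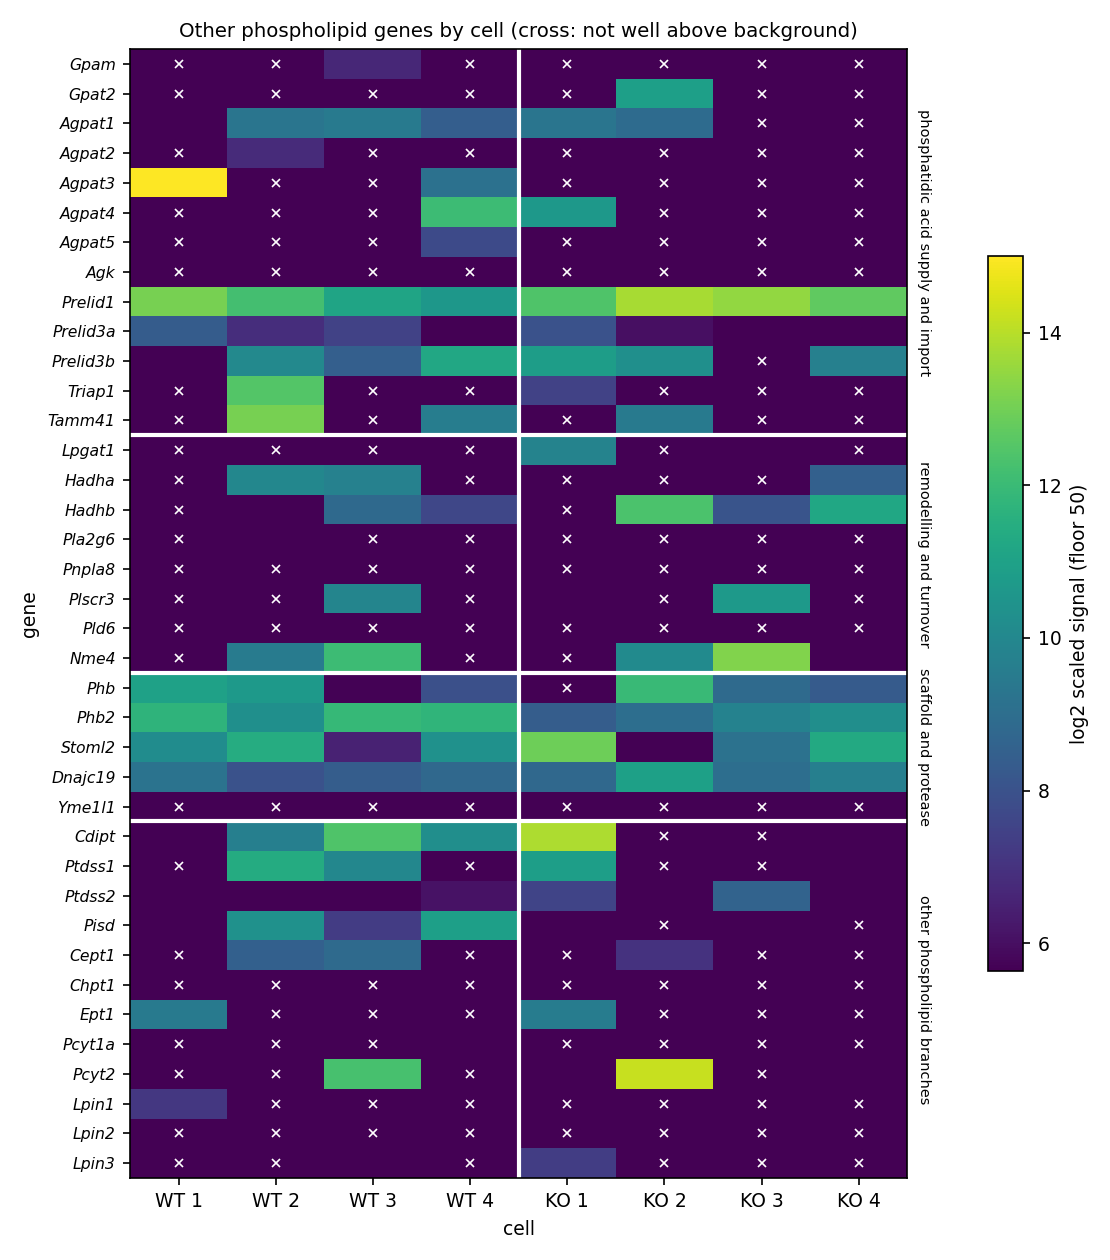
Log2 scaled signal (colour, floor of 50) of the brightest probe of each of 38 other phospholipid genes (rows, in 4 groups by role) in 4 WT and 4 KO cells (columns). A cross marks where the probe was not well above background. Prelid1, Phb2 and Dnajc19 were detected in every cell, most other genes were missing from several cells of both genotypes, and Pisd was under the floor in all 4 KO cells.

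The genes whose pattern over the 8 cells was most like that of Ptpmt1 were then taken from 4085 probes of 3527 genes, by Pearson correlation of log2 signals. The points of each correlation share arrays, slides and scaling, and as the extremes of so many they are given as a description. The highest were Rnf181 (r = 0.976 over 8 cells), a ubiquitin ligase, Fam162a (0.96), a mitochondrial protein induced by low oxygen, and l7Rn6 (0.957), now named Hikeshi, an importer of heat shock protein into the nucleus. Tmem38a (0.945), a cation channel of the sarcoplasmic reticulum, and Lage3 (0.883), a subunit of a tRNA-modifying complex, followed. In all 5 of these, WT cell 3 read far above the other WT cells on the probe picked. The l7Rn6 and Lage3 probes were not the brightest of their genes. The l7Rn6 probe picked differed by 3.67 between genotypes, and another l7Rn6 probe by 1.51. Per the array files, the Lage3 probe lay at chr17:76683530-76683589 in mm9. Rnf181 read 2674.9 in WT cell 3 and at most 3.4 in the other WT cells, against 777.1 to 5790.4 in KO cells. Fam162a read 3792.7 in WT cell 3 and 9.0, 169.2 and 271.3 in WT cells 1, 2 and 4, against 6712.9 to 16266.7 in KO cells. The likeness thus included the placing of WT cell 3 near the KO cells as well as the gap between genotypes. With the genotype means removed, r was 0.979 for Rnf181 and 0.874 for Fam162a.

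The lowest correlations were those of Evc2 (-0.964), a ciliary protein of hedgehog signalling, Pcnp (-0.956), a nuclear protein, Sec31a (-0.954), a subunit of the coat of secretory vesicles, Fam65a (-0.953), now named Ripor1, and Cited1 (-0.953), a transcriptional co-regulator. Evc2 read 2154.4, 5059.7 and 5030.5 in WT cells 1, 2 and 4 but 105.2 in WT cell 3, and no more than 2.9 in KO cells. Pcnp read 2385.8 to 5794.4 in the same 3 WT cells, 120.2 in WT cell 3 and at most 7.0 in KO cells. On the probes picked, WT cell 3 lay next to the KO cells here too. The Sec31a probe was not the brightest of its gene. Another Sec31a probe differed by -6.55, with an SD of 0.89 between WT cells and 0.0 between KO cells. That probe thus did not place WT cell 3 with the KO cells. Over all 644 present probes at least 5-fold apart in either direction, WT cell 3 lay on the KO side of the midpoint between the genotype means for 117 (18.2%). That was inside the range of the other cells on the side of the opposite genotype, which was 13.8% to 32.5%, with the highest share in KO cell 4. The 2 directions differed. Of the 130 higher probes, WT cell 3 lay on the KO side for 44, the most of any cell, against 12 to 37 for the others. Of the 514 lower probes it did so for 73, against 52 to 175 for the others. The placing of WT cell 3 with the KO cells was thus not confined to the probes picked. Over all 644 probes its share was not the highest.

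**Figure D4:**
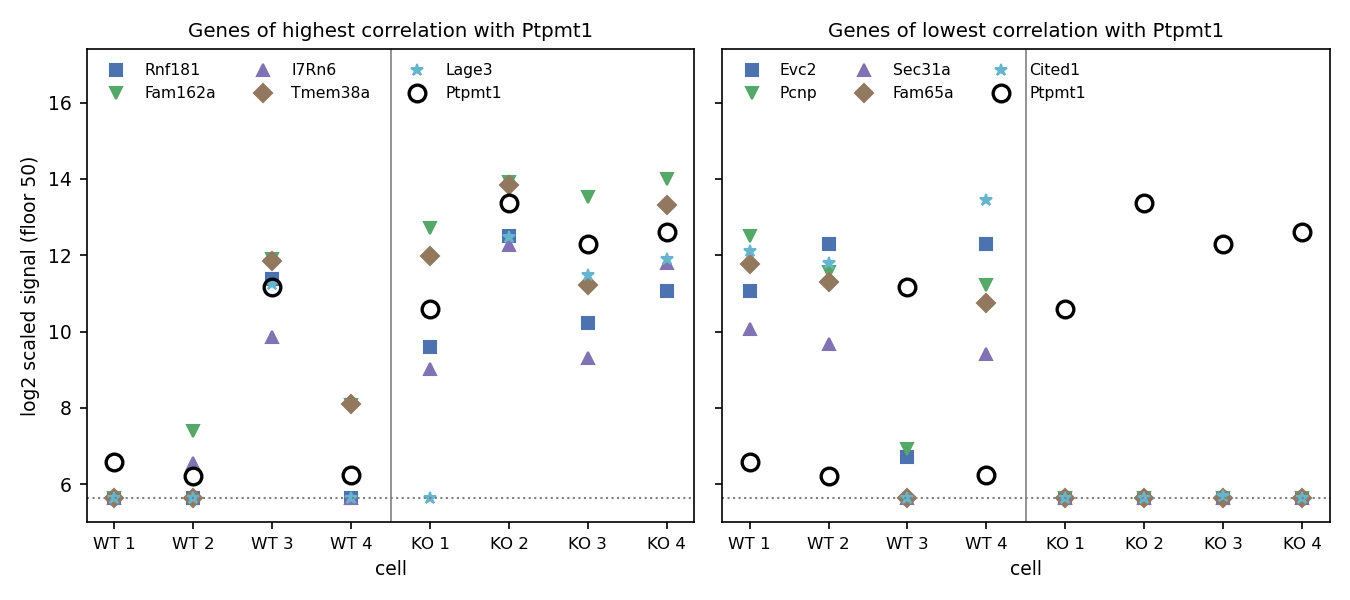
Log2 scaled signal (vertical axis, floor of 50 as the dotted line) of Ptpmt1 (open circles) in 4 WT and 4 KO cells, with the 5 genes of highest correlation (left) and of lowest correlation (right) with it over the 8 cells. In both panels WT 3 lies nearer to the KO cells than the other WT cells do, high on the left and at or near the floor on the right.

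Of the 15 list genes detected in at least 4 cells, for which alone the correlation was computed, Hadhb (r = 0.75) and Dnajc19 (0.60) had the highest correlation with Ptpmt1 over the 8 cells, and Pisd (-0.71) and Phb2 (-0.53) the lowest. The genes above, picked from all probes for their correlation, had values further from 0.

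The genes next to Ptpmt1 on the chromosome were detected in few cells. In the gene table used here (build GRCm38.p6), Kbtbd4 lies 151 bases from Ptpmt1 on the opposite strand, so that both genes run towards each other, and no protein-coding gene overlaps Ptpmt1. The Kbtbd4 and Ptpmt1 probes are 452 bases apart in mm9. Kbtbd4 was detected in WT cell 1 only, at 1525.0, and read 1.4 to 3.4 in the other 7 cells. Celf1, the RNA-binding protein gene on the other side at 22208 bases, was detected by its 3 probes in 0, 2 and 1 WT cells and in 0, 1 and 1 KO cells. Neither neighbour was thus detected in most KO cells, in which Ptpmt1 read 1531.6 to 10617.8.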

How the data were processed

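The deposited files were scanner output for 8 one-colour arrays (per the file headers, made with version 12.0.2.2 of Agilent Feature Extraction) and held linear intensity values corrected for background by that software. The authors set levels under 50 to 50 and scaled each chip on its 50th percentile, then normalised and subtracted genes in steps that were not repeated. Here control spots and outlier spots (146 to 220 per array) were left out, spots of a probe were averaged, and each array was shifted (by -0.76 to 0.68 on the log2 scale) to equalise the 50th percentile over the 5301 probes well above background on all 8 arrays. Values under 50 were then set to 50. The number of arrays limits the precision. A probe was present when every cell of 1 genotype or both had it detected, and a difference of at least 5-fold (2.32 on the log2 scale) was counted, with no test. A fold against a genotype with no detected cell was taken with undetected cells of both genotypes at the floor, so it is not a bound. Some alternatives gave smaller differences, as for Crls1 (-0.98 with the normexp correction, against -1.19).

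The genes and lists were chosen with earlier results of these data known. A gene's brightest probe stood for it unless said otherwise, except in the search for patterns like that of Ptpmt1, which was run over probes. There l7Rn6, Lage3 and Sec31a were each given by a probe that was not the brightest of its gene. Genes named were all members, list genes present and at least 5-fold apart or among the 3 brightest of their group (Tamm41 was named besides, after its values were seen), the 5 highest and 5 lowest correlations with Ptpmt1 among named probes detected in at least 4 cells with an SD of at least 1, and the nearest protein-coding neighbours. Names and distances of neighbours came from a RefSeq gene table (GRCm38.p6), and probe positions are those of mm9 in the files. Of the columns of sample values, 0 were left unmapped. Python 3.11.15 with numpy 2.4.6 and pandas 2.3.3 was used, also for the quantile alternative, and limma 3.58.1 in R 4.3.3 for the normexp alternative (offset 50). The scaling and counting steps were tested on simulated probes detected in all cells, with less spread than between the WT cells. That test does not cover undetected values. Other percentiles, no floor, medians, another detection filter, a 2-fold rule, outlier spots kept and each cell left out were alternatives.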

Additional observations from a re-analysis of the deposited data

Results flagged for a closer look

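Within each genotype, the gap between the highest or lowest cell and its nearest neighbour was set against the range of the 4 cells, for 72 sets of 4 values. A gap above Dixon's 95% limit was met by 19 sets, where chance passes about 1 in 20. Single-cell values of which 3 lie at the floor pass it by construction, and 14 of the 19 were of that kind.

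For Ptpmt1, WT cell 3 stood apart at 11.18 on the log2 scale (gap 0.926 of the range). Crls1 and Taz stood apart in WT cell 4, at 10.38 and 9.77. Among the neighbours, Kbtbd4 stood apart in WT cell 1 (10.57), and Celf1 in KO cell 1 with one probe (9.9) and in WT cell 3 (10.55) and KO cell 4 (12.5) with another.

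Of the list genes, Phb2 was lowest in WT cell 2 (10.29, gap 0.883), Hadha was above the floor in KO cell 4 only among KO cells (8.5), Cdipt and Ptdss1 in KO cell 1 (13.84 and 10.88), and Pcyt2 in WT cell 3 (12.28) and KO cell 2 (14.2). Of the genes picked for following Ptpmt1, each on the probe picked, WT cell 3 stood apart among WT cells for Rnf181 (11.39), Lage3 (11.26), Sec31a (5.64) and Fam65a (5.64). KO cell 1 stood apart for Lage3 (5.64), and KO cell 3 for Cited1 (5.68, with the other KO cells at 5.64).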

How the results depend on the processing

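The KO minus WT difference of Ptpmt1 (4.67) was 4.03 to 6.05 under the other scalings, corrections and summaries, and 4.22 to 5.87 with 1 cell left out, the highest without WT cell 3. The number of the 7 genes at least 5-fold higher in KO cells (1) was 1 to 2 with 1 cell left out. It was 2 without KO replicate 1, which added Pgs1, and without KO replicate 2, which added Lclat1, since fewer cells then had to pass detection, and it was 3 with no detection filter. With no floor, Pgs1 differed by 7.70 and Lclat1 by 5.98. Without KO replicate 1, Lclat1 differed by 1.64. Of 163 values under alternatives, 154 moved by less than the spread between cells or, for counts, by at most 1.5 times, and 9 moved by more. Other definitions of detection and any probe of a gene, added after seeing the data, gave 10 to 12 detected values in KO (10) and 6 to 9 in WT (6). The median of the 15 list genes (0.14) was -0.66 to 0.53 with 1 cell left out and -0.63 with no floor, so its sign was not fixed. The median difference of probes detected in all 8 cells was 0.15 and ran from 0.00 to 0.34 over the scalings. No paired analysis was possible because WT and KO cells share no more than a number and no result comes from a test.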
